A study of Homo sapiens with 10 samples.

Results

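The 10 genes described here encode enzymes of glycolysis: HK1, HK2, GPI, PFKP, ALDOA, TPI1, GAPDH, PGK1, ENO1 and PKM. They were chosen by name, as every transcript in the deposited annotation whose gene name held one of these symbols. That gave 10 of 57110 gene identifiers and 47 of 99493 transcripts. Of the 47 transcripts, 37 had at least 1 count in a library and 18 took at least 10% of their gene's counts in a library. The data are nanopore long-read RNA libraries of 7 human ovarian cancer cell lines, made to benchmark a transcript quantification package. COV504, COV362, SK-OV-3, OVKATE, OVMANA and OVTOKO had 1 library each, run on a PromethION, a high-output nanopore instrument. IGROV-1 had 2 PromethION libraries and 2 libraries from the smaller MinION. No treatment, genotype or time point is given for any line, and the labels do not say whether the IGROV-1 replicates came from separate cultures, so p-values measure only the spread between those libraries.

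Glycolysis splits glucose into pyruvate in the cytosol, with an investment phase that spends ATP and a payoff phase that makes ATP and NADH. Hexokinase traps glucose in the cell, phosphofructokinase commits it to the pathway, and pyruvate kinase makes the last ATP, while most of the steps between are close to equilibrium. Cancer cells often run the pathway fast even with oxygen present, and several of its enzymes come as isoforms from separate genes or from alternative splicing of a single gene.

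Library totals lay between 1729782 and 3666224 counts. Levels are CPM, a gene's share of its library's counts scaled to a fixed total, and are not divided by transcript length, since a long read stands for a single molecule. In bulk RNA, fewer cells of a type and less RNA per cell cannot be told apart. Mitochondrial ribosomal RNA took 9.13% and 10.9% of the counts in the IGROV-1 PromethION libraries, 1.15% and 1.01% in the MinION libraries and 1.58% to 3.31% in the other lines. Among 6 epithelial markers, the summed level was 569 to 8883 CPM, and PAX8, a factor of the Müllerian epithelium, was present in every library (84.1 to 340 CPM), while CDH1 was at 0 counts in all IGROV-1 libraries. Of 4 fibroblast markers the sum was 0.58 to 434 CPM, highest in COV362 through COL1A2. Of 3 leukocyte markers, CD3E was under 1 count everywhere and PTPRC at most 0.44 CPM, while CD68 is deposited only under an identifier joined with SENP3, EIF4A1 and others (347 to 1065 CPM), which is no measure of CD68. The IGROV-1 libraries numbered 1 and 2 differed on both instruments in KRT18, at 263 and 244 CPM in replicate 1 and 1041 and 1080 CPM in replicate 2. Of 3 endothelial markers the sum was 0.53 to 25.8 CPM. The part of these differences in the results below was not tested.

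Summed over the 10 genes, the level was 14523 CPM in COV504, 12235 in COV362, 11823 in SK-OV-3, 7010.4 in OVKATE, 15536 in OVMANA and 19122 in OVTOKO. The IGROV-1 PromethION libraries held 10227 and 9013 CPM, and the MinION libraries 13056 and 11381. OVKATE was thus the lowest and OVTOKO the highest of the lines. GAPDH alone made up 27.8% of this sum in OVKATE and up to 57.6% of it in COV362. The order of the sums is therefore not one that all 10 genes share alike.

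Each line was compared with IGROV-1 PromethION, gene by gene. Of 60 pairs of gene and line, 38 passed the test (quasi-likelihood test of edgeR, p under 0.05 after Benjamini-Hochberg adjustment over all 13030 genes tested), against 41.1% of all genes tested in these 6 comparisons. Of the 38, 30 were higher than IGROV-1, against 22.3% of all genes, and 8 were lower, against 18.8%. OVTOKO had 8 members higher, where 18.2% of all genes were higher and 15.9% lower, and 0 lower. OVMANA had 7 higher (18.9% of all genes) and 0 lower (16.5%). SK-OV-3 had 5 higher (22% of all genes) and 3 lower (19.8%), and COV504 5 higher (24%) and 1 lower (19.6%). COV362 had 4 higher (23.7% of all genes) and 1 lower (18.8%). OVKATE was the line with the fewest higher members, 1 (26.8% of all genes), and had 3 lower (22.4%). Called in either direction were 34.1% of all genes in OVTOKO, 35.4% in OVMANA, 41.8% in SK-OV-3, 42.5% in COV362, 43.5% in COV504 and 49.2% in OVKATE. The median log2 difference over the 10 genes was 0.99 in OVTOKO, 0.82 in OVMANA, 0.60 in COV504, 0.45 in SK-OV-3, 0.06 in COV362 and -0.08 in OVKATE, where the median of all genes lay between -0.01 and 0.04. The 6 comparisons share the IGROV-1 libraries, each line is a single library assumed to vary like IGROV-1, and the spread rests on 2 residual degrees of freedom. Of the 38 calls, 26 (22 higher, 4 lower) held under every alternative setting tried. Without the mitochondrial ribosomal RNA genes the number of calls was again 38, all of them among the 38.

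**Figure D1:**
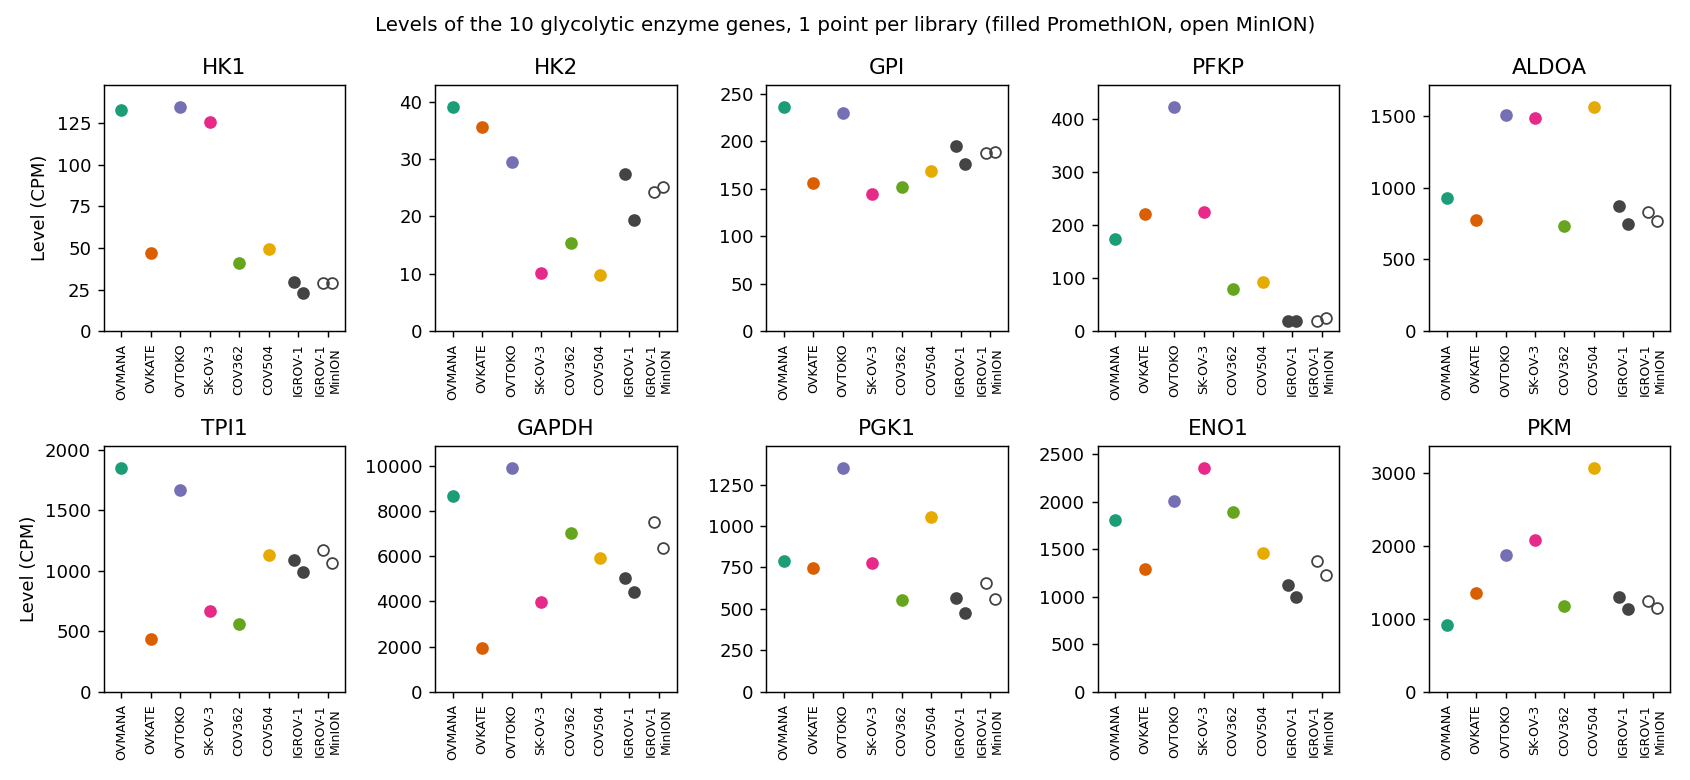
Level of each glycolytic enzyme gene (y axis, CPM, each panel from 0) in each library (x axis, cell line), with filled points for PromethION and open points for MinION libraries. PFKP sits between 18.0 and 23.8 CPM in the 4 IGROV-1 libraries and between 79.9 and 423 CPM in the other lines, and TPI1 and GAPDH are lowest in OVKATE.

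HK1 (ENSG00000156515, chromosome 10, 69270000 to 69401882) encodes the hexokinase found in most tissues, which binds to mitochondria. Its level was 49.4 CPM in COV504, 40.7 in COV362, 126 in SK-OV-3, 47.0 in OVKATE, 133 in OVMANA and 135 in OVTOKO, against 29.5 and 23.2 in IGROV-1 PromethION and 28.6 and 28.7 in MinION. OVMANA, OVTOKO and SK-OV-3 formed a high group above all other libraries, and the 4 IGROV-1 libraries were the lowest. Against IGROV-1 (26.3 ± 4.44 CPM, SD, n = 2), the log2 difference was 2.40 ± 0.19 (SE; edgeR adjusted p = 5.0e-05) in OVMANA, 2.43 ± 0.20 (5.8e-05) in OVTOKO and 2.03 ± 0.20 (0.00011) in SK-OV-3. The differences of COV504 (0.83, edgeR adjusted p = 0.015) and COV362 (0.67, 0.036) were smaller. Both calls were lost without IGROV-1 PromethION replicate 2, without MinION replicate 1 and under DESeq2. That of COV362 was also lost without MinION replicate 2, with no filter and with the 8 PromethION libraries only. Adjusted p-values reached 0.493 over the alternatives. OVKATE did not pass (0.53, edgeR adjusted p = 0.075). At least 99.2% of HK1 counts in each library were on ENST00000359426.

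HK2 (ENSG00000159399, chromosome 2, 74833981 to 74893359) encodes the hexokinase that is inducible in muscle and fat and raised in many tumours. It had 9.79 CPM in COV504, 15.3 in COV362, 10.1 in SK-OV-3, 35.6 in OVKATE, 39.0 in OVMANA and 29.5 in OVTOKO, and 27.3 and 19.3 in IGROV-1 PromethION. These levels rest on 20 to 89 counts per library. HK2 was lower than IGROV-1 in SK-OV-3 (log2 -1.43 ± 0.34 SE, edgeR adjusted p = 0.010) and COV504 (-1.33 ± 0.33, 0.012) and higher in OVMANA (0.80 ± 0.26, 0.044). Each of the 3 calls was lost without either MinION replicate and under DESeq2, and that of OVMANA also without PromethION replicate 2, with adjusted p-values up to 0.639.

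The mix of both hexokinases varied between lines. HK2 made up 48.1% and 45.5% of their joint counts in IGROV-1 PromethION and 45.9% and 46.6% in MinION. The share was 43.1% in OVKATE (95% Wilson interval 35.8% to 50.7%), 27.3% in COV362, 22.7% in OVMANA, 18.0% in OVTOKO, 16.5% in COV504 and 7.43% in SK-OV-3 (4.86% to 11.2%). Such intervals cover counting error only. IGROV-1 and OVKATE were the lines in which both genes had like counts, and SK-OV-3 was the one most given to HK1. Per kilobase of transcript the HK2 share was lower in every library, 4.86% in SK-OV-3 and 37.1% in the higher IGROV-1 PromethION library.

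GPI (ENSG00000105220, chromosome 19, 34364740 to 34402156), which turns glucose 6-phosphate into fructose 6-phosphate, varied least, by 1.64-fold from the lowest to the highest line. It stood at 168 CPM in COV504, 151 in COV362, 144 in SK-OV-3, 156 in OVKATE, 236 in OVMANA and 230.1 in OVTOKO, against 195 and 176 in IGROV-1 PromethION. In the 6 lines other than IGROV-1, ENST00000356487 took 85.8% to 88.9% of GPI counts and ENST00000415930 took 11.1% to 14.2%. GPI was lower in SK-OV-3 (log2 -0.60 ± 0.16 SE, edgeR adjusted p = 0.019) and OVKATE (-0.55 ± 0.16, 0.022). Both calls were lost without PromethION replicate 1, without MinION replicate 1 and under DESeq2, and that of SK-OV-3 also without MinION replicate 2, with adjusted p-values up to 0.419.

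PFKP (chromosome 10, 3067520 to 3148622) encodes the platelet-type phosphofructokinase, the enzyme of the committed step. It had the widest range of the 10 genes, 22.4-fold between lines. Its level was 93.4 CPM in COV504, 79.9 in COV362, 225 in SK-OV-3, 221 in OVKATE, 173 in OVMANA and 423 in OVTOKO, against 19.6 and 18.0 in IGROV-1 PromethION and 19.4 and 23.8 in MinION. Every other line lay above every IGROV-1 library. The log2 difference was 4.56 ± 0.17 (SE; edgeR adjusted p = 1.9e-06) in OVTOKO, 3.34 ± 0.18 (6.2e-06) in SK-OV-3, 3.26 ± 0.18 (7.0e-06) in OVMANA, 3.25 ± 0.18 (5.8e-06) in OVKATE, 2.23 ± 0.19 (5.1e-05) in COV504 and 2.12 ± 0.19 (8.2e-05) in COV362. All 6 calls held under every alternative run. In the deposited annotation PFKP shares a joined identifier with AL451164.3 and PITRM1-AS1, whose transcripts lie on the same strand. ENST00000381125, a PFKP transcript of 2654 bases, held 98.0% ± 1.11 (SD, n = 2) of the counts in IGROV-1 PromethION.

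ALDOA (ENSG00000149925, chromosome 16, 30053090 to 30070420) encodes the main aldolase of muscle and most tumours, which splits fructose 1,6-bisphosphate. It stood at 1559 CPM in COV504, 731 in COV362, 1487 in SK-OV-3, 773 in OVKATE, 924 in OVMANA and 1508 in OVTOKO, against 870.1 and 744 in IGROV-1 PromethION. OVTOKO, SK-OV-3 and COV504 formed a high group. They differed from IGROV-1 by a log2 of 0.98 ± 0.17 (SE; edgeR adjusted p = 0.0027), 0.65 ± 0.17 (0.015) and 0.87 ± 0.17 (0.0037). The SK-OV-3 call was lost without PromethION replicate 2 or MinION replicate 1 (adjusted p up to 0.099).

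TPI1 (ENSG00000111669, chromosome 12, 6867119 to 6870948) encodes triosephosphate isomerase, which makes both products of the aldolase step usable. Its level was 1126 CPM in COV504, 557 in COV362, 665 in SK-OV-3, 433 in OVKATE, 1847 in OVMANA and 1664 in OVTOKO, against 1091 and 992 in IGROV-1 PromethION. The lines fell on both sides of IGROV-1. TPI1 was lower in OVKATE (log2 -1.57 ± 0.18 SE, edgeR adjusted p = 0.00024), SK-OV-3 (-0.87 ± 0.18, 0.0048) and COV362 (-0.86 ± 0.18, 0.0053) and higher in OVMANA (0.89 ± 0.16, 0.0038) and OVTOKO (0.75 ± 0.17, 0.0089). All 5 calls held under every alternative run.

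GAPDH (ENSG00000111640, chromosome 12, 6533927 to 6538374), the dehydrogenase that makes NADH and opens the payoff phase, is often used as a reference gene for RNA amounts. It stood at 5938 CPM in COV504, 7046 in COV362, 3961 in SK-OV-3, 1952 in OVKATE, 8670.1 in OVMANA and 9905 in OVTOKO, against 5019 and 4427 in IGROV-1 PromethION and 7512 and 6358 in MinION. The lowest line, OVKATE, thus had 5.08-fold less than the highest, OVTOKO. GAPDH was lower in OVKATE (log2 -1.58 ± 0.21 SE, edgeR adjusted p = 0.00045) and higher in OVTOKO (1.15 ± 0.19, 0.0021) and OVMANA (0.94 ± 0.19, 0.0055). The COV362 difference (0.62 ± 0.19, edgeR adjusted p = 0.029) was lost without PromethION replicate 1, PromethION replicate 2 or MinION replicate 1 (up to 0.203), and with both instruments of IGROV-1 as the reference.

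PGK1 (ENSG00000102144, chromosome X, 78104174 to 78129296) makes the first ATP of the payoff phase, and all its counts were on ENST00000373316. It had 1056 CPM in COV504, 552 in COV362, 776 in SK-OV-3, 749 in OVKATE, 790.3 in OVMANA and 1349.9 in OVTOKO, against 563 and 477 in IGROV-1 PromethION. It was higher in OVTOKO (log2 1.45 ± 0.18 SE, edgeR adjusted p = 0.00061) and COV504 (0.94 ± 0.19, 0.0040). The OVMANA call (0.67 ± 0.19, edgeR adjusted p = 0.024) was lost without PromethION replicate 2 or MinION replicate 1 (up to 0.097).

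ENO1 (ENSG00000074800, chromosome 1, 8861002 to 8878690) encodes the enolase of most tissues. It stood at 1459 CPM in COV504, 1892 in COV362, 2354 in SK-OV-3, 1288 in OVKATE, 1812 in OVMANA and 2005 in OVTOKO, against 1119.6 and 1001 in IGROV-1 PromethION and 1378 and 1228 in MinION. All ENO1 counts were on ENST00000234590. Every other line lay above both IGROV-1 PromethION libraries in CPM. The difference passed in OVTOKO (log2 1.00 ± 0.17 SE, edgeR adjusted p = 0.0027), SK-OV-3 (0.92 ± 0.17, 0.0031), COV362 (0.88 ± 0.17, 0.0040) and OVMANA (0.83 ± 0.17, 0.0061), and all 4 calls held under every alternative run.

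PKM (ENSG00000067225, chromosome 15, 72199029 to 72231822) encodes the pyruvate kinase of muscle and of most proliferating cells. Its level was 3065 CPM in COV504, 1170.2 in COV362, 2075 in SK-OV-3, 1357 in OVKATE, 912 in OVMANA and 1873 in OVTOKO, against 1293 and 1135 in IGROV-1 PromethION. COV504 stood above all other libraries. It exceeded IGROV-1 by a log2 of 1.26 ± 0.17 (SE; edgeR adjusted p = 0.00054) under every alternative run. OVTOKO (0.70 ± 0.17, edgeR adjusted p = 0.013) lost its call without PromethION replicate 2, and SK-OV-3 (0.54 ± 0.17, 0.031) without either PromethION replicate, without MinION replicate 1 and under DESeq2.

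**Figure D2:**
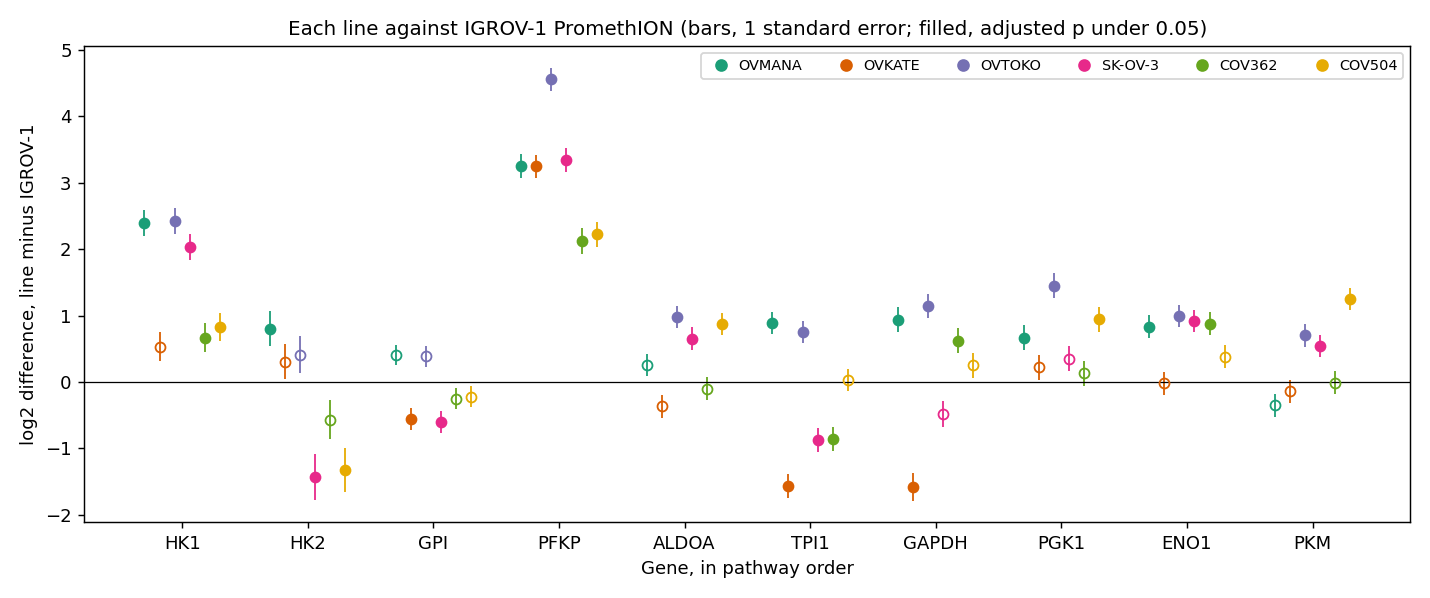
Log2 difference of each line from IGROV-1 PromethION (y axis) for each gene in pathway order (x axis), with 1 standard error as bars and filled points for an edgeR adjusted p under 0.05. PFKP is higher in all 6 lines by 2.12 to 4.56, and TPI1 and GAPDH run from -1.57 and -1.58 in OVKATE to 0.89 and 1.15 in OVMANA and OVTOKO.

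Over all 21 pairs of lines, the number of pairs called was 18 for TPI1, 17 for PFKP, 15 for GAPDH, 14 for HK1, 12 for ALDOA and PKM, 10 for HK2 and GPI and 9 for PGK1 and ENO1, against 35.4% of all genes and pairs. When the 7 lines were ordered by CPM, 11 of the 60 steps between neighbours passed the test (edgeR), against 9.42% of such steps over all genes tested, and 12 of the 60 ran against the CPM order in the fit. For the other 49 steps a difference beyond the spread was not shown. The steps that passed set OVTOKO above SK-OV-3, OVMANA above COV504 and COV362 above IGROV-1 for PFKP. For HK1 they were SK-OV-3 above COV504 and COV362 above IGROV-1. TPI1 stepped down from OVTOKO to COV504, from IGROV-1 to SK-OV-3 and from COV362 to OVKATE, and GAPDH from SK-OV-3 to OVKATE. For PKM, COV504 was above SK-OV-3 and OVTOKO above OVKATE. None of the steps passed for HK2, GPI, ALDOA, PGK1 or ENO1. The number of steps called fell to 6 without MinION replicate 1 and to 4 with DESeq2.

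Transcript shares are described in more detail for 3 genes, ALDOA, PKM and TPI1. ALDOA transcripts fell into 3 classes by annotated start on GRCh38: a distal start (30053090 to 30053494), a middle start (30064185 to 30064497) and a proximal start (30065148 to 30065777). The main transcripts of the 3 classes share the exon that begins at 30067234 and differ in what is spliced to it. ENST00000564546, of the proximal class, joins it from an exon that ends at 30065927. ENST00000563060 of the middle class and ENST00000338110 and ENST00000566897 of the distal class all join it from an exon that ends at 30064505, with 6 and 4 exons before the shared one in the distal pair. GENCODE 29 lists both distal transcripts under AC093512.2 instead of ALDOA. Their annotated coding lengths are 417 bases (ENST00000338110) and 273 bases (ENST00000566897), against 1092 for ENST00000564546 and ENST00000563060. All of these transcripts are counted in the ALDOA levels given here.

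The distal class took 37.8% of ALDOA counts in OVMANA (95% Wilson interval 35.5% to 40.1%) and 22.9% in OVTOKO (21.3% to 24.6%). It took 9.96% in OVKATE, 4.56% in COV504, 3.99% in COV362 and 2.98% in SK-OV-3. In IGROV-1 it was 8.28% and 6.73% on PromethION and 7.98% and 6.59% on MinION. OVMANA and OVTOKO stood clear of all other libraries, and the middle class was also highest there (8.38% and 4.12%, with 1.46% to 2.32% elsewhere). As levels, distal transcripts had 349 CPM in OVMANA and 346 in OVTOKO, against 29.2 to 77.0 in the other 8 libraries. Proximal transcripts had 497 CPM in OVMANA, the lowest of all libraries, and 1101 in OVTOKO. Both lines' use of ALDOA transcripts differed from IGROV-1 PromethION in edgeR's test of transcript usage within a gene (OVMANA adjusted p = 0.00014, OVTOKO 0.0085). These were 2 of 4 usage calls among 36 pairs of member and line, where 2.69% of all genes tested were called (2.79% in OVMANA, 1.31% in OVTOKO, 4.76% in OVKATE, 2.75% in COV362, 2.54% in COV504 and 2.01% in SK-OV-3). The OVMANA call held under every alternative run, with adjusted p-values up to 0.026. The OVTOKO call was lost when any of the 4 IGROV-1 libraries was left out (up to 0.186).

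**Figure D3:**
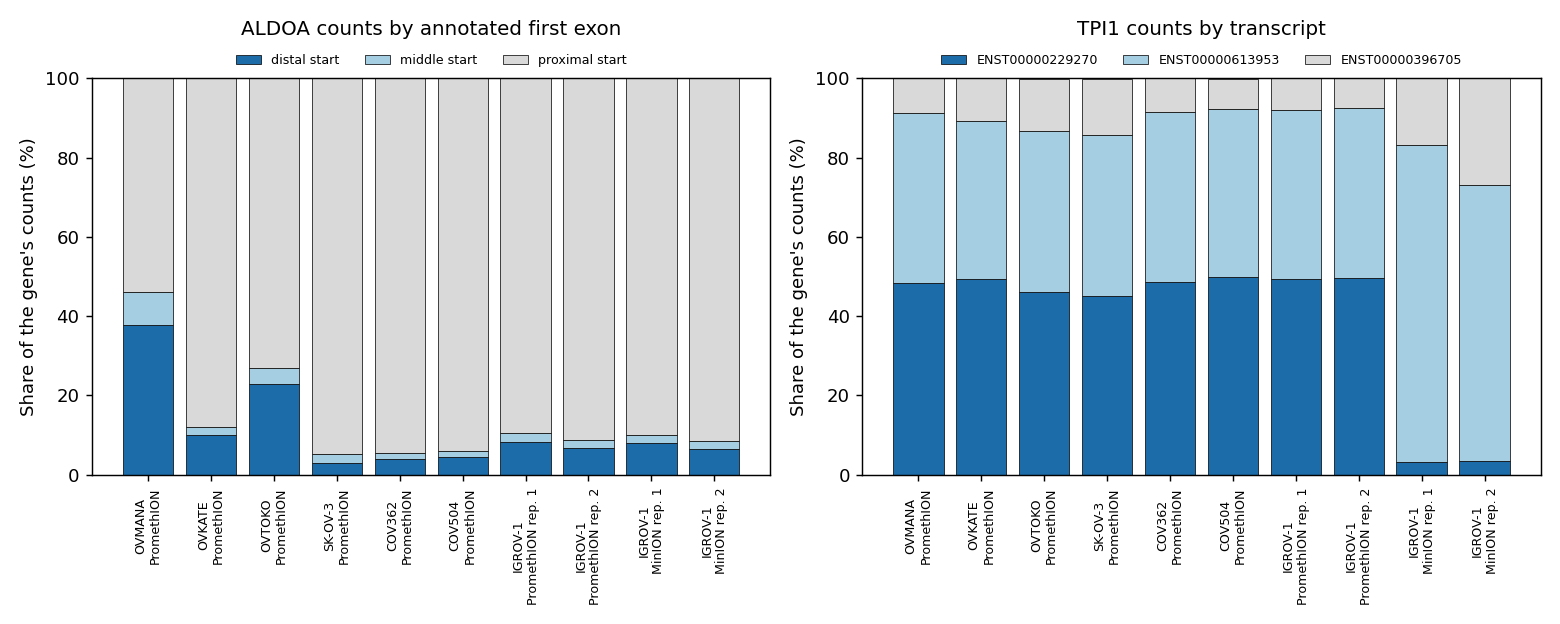
Share of ALDOA counts by class of annotated start (left) and of TPI1 counts by transcript (right), in percent (y axis), for each of the 10 libraries (x axis). The distal ALDOA class takes 37.8% in OVMANA and 22.9% in OVTOKO and at most 9.96% elsewhere, and ENST00000229270 of TPI1 takes 45.0% to 49.8% in PromethION libraries and 3.3% and 3.4% in MinION libraries.

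PKM carries a pair of mutually exclusive exons of 167 bases each, and the choice between them makes the M1 enzyme, typical of adult muscle and brain, or the M2 enzyme, typical of embryonic and tumour cells. They are printed 5′ to 3′ as the RNA reads, from GENCODE 29 transcripts on the minus strand of chromosome 15, GRCh38, with capitals at the 62 positions where they differ (62.9% identity). The M1 exon lies at 72203022 to 72203188 and the M2 exon at 72202454 to 72202620.
PKM M1 exon: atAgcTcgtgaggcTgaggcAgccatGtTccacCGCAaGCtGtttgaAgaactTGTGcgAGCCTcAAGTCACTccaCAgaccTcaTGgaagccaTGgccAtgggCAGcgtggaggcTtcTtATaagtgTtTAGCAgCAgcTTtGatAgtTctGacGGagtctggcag
PKM M2 exon: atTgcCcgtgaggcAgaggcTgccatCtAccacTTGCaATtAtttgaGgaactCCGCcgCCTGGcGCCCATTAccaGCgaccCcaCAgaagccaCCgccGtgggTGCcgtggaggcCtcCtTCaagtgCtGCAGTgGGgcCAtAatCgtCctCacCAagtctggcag

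The 3 transcripts with the M2 exon took 93.4% to 98.1% of PKM counts in PromethION libraries and 99.1% and 98.8% in MinION libraries. Transcripts with the M1 exon, nearly all ENST00000319622, took 6.64% in OVKATE (95% Wilson interval 5.77% to 7.64%), 4.77% in SK-OV-3, 3.57% in OVTOKO, 3.54% in COV504, 3.16% in OVMANA and 1.90% in COV362 (1.47% to 2.46%). IGROV-1 had 3.09% and 3.35% on PromethION and 0.85% and 1.20% on MinION. OVKATE was the highest PromethION library, with an interval above all others, and COV362 the lowest, with an interval that overlapped that of OVMANA (2.43% to 4.10%). In the annotation ENST00000319622 also differs from ENST00000335181 in its first exon, so this share is not a measure of the M1 exon alone. Among M2 transcripts, ENST00000335181 was the main one (67.5% to 78.7% of PKM counts). ENST00000389093 took 19.7% in COV362 and 10.5% to 14.9% in the other libraries, and ENST00000449901 took 8.0% to 12.3%. PKM usage differed from IGROV-1 PromethION in OVKATE (edgeR adjusted p = 0.024) and COV362 (0.032). Both calls were lost when any of the 4 IGROV-1 libraries was left out (adjusted p up to 0.281) and with only the 8 PromethION libraries.

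TPI1 counts were split among 3 transcripts that have all introns in common and differ only in annotated start and end. ENST00000229270 starts at 6867119, ENST00000613953 at 6867420 and ENST00000396705 at 6867531. In PromethION libraries of all 7 lines the first took 45.0% to 49.8%, the next 39.9% to 43.0% and the last 7.5% to 14.1%. No usage difference of TPI1 between lines passed the test. The RefSeq promoter window of TPI1 (GRCh38.p14) holds TATATAA, in capitals below, on the plus strand at chr12:6867501-6867507, and the motif's first base lies 30 bases before the start of ENST00000396705. This motif, searched on both strands, is in 2.6% of 35116 such windows of 300 bases, and in 1 of 23 windows of the 10 genes. The search also covered ACGTG, in 21.4% of all windows and 10 of the 23, and GGGCGG, in 45.0% and 14 of the 23.
TPI1 chr12:6867491-6867517: cgcggcgctcTATATAAgtgggcagtg

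Within IGROV-1, levels on the MinION were compared with those on the PromethION. The labels of these libraries give only the instrument and a replicate number. The instrument therefore cannot be told apart from RNA batch, library preparation or other differences between both sets of libraries. Of the 10 genes, 0 passed (edgeR, with 0.817% of all genes called, 0.11% higher and 0.707% lower), 1 had an unadjusted p under 0.05, and DESeq2 called 0. That gene was GAPDH, whose PromethION level of 4723 ± 418 CPM compared with 6935 ± 817 for MinION (mean and SD of 2 libraries). Its log2 difference was 0.52 ± 0.16 (SE; edgeR adjusted p = 0.17). ENO1 was next, at 1060.4 ± 83.7 and 1303 ± 106 CPM (adjusted p = 0.39). The remaining 8 genes differed by a log2 of -0.06 to 0.19. This fit does not pair libraries by replicate number. With that number as a block, GAPDH, ENO1 and PGK1 passed (edgeR adjusted p = 5.2e-10, 0.0011 and 0.031). The block leaves fewer residual degrees of freedom than the 2 of the unpaired fit. The share of all genes called with the block is not given here, so these calls cannot be read as particular to the members. The labels do not say whether same-numbered libraries belong together.

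Single transcripts did differ between the MinION and PromethION libraries. Of 25 tested transcripts of the 10 genes, 7 passed (edgeR, with 2.29% of all transcripts called, 0.87% higher and 1.42% lower), all in TPI1, GAPDH or PKM. ENST00000229270 of TPI1 fell from 49.5% ± 0.19 of TPI1 counts on PromethION to 3.36% ± 0.06 on MinION (SD, n = 2; log2 level -3.82 ± 0.16 SE, edgeR adjusted p = 1.1e-05). ENST00000613953 rose from 42.8% ± 0.13 to 74.8% ± 7.19 (log2 0.87) and ENST00000396705 from 7.74% ± 0.33 to 21.8% ± 7.13 (log2 1.52). The summed level of TPI1 was 1041 ± 69.5 CPM on PromethION and 1117 ± 81.3 CPM on MinION and did not pass (edgeR adjusted p = 0.86).

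GAPDH kept one dominant transcript on both instruments. ENST00000229239 held 96.5% ± 0.36 of its counts on PromethION and 92.1% ± 0.77 on MinION, and did not pass. ENST00000396859, whose annotated start is at 6534754, rose from 149 ± 31.4 to 485 ± 5.54 CPM (SD, n = 2; log2 1.65 ± 0.17 SE, edgeR adjusted p = 0.0023). The minor ENST00000396861 and ENST00000396858 also rose (log2 2.01 and 3.26), to 0.42% and 0.15% of GAPDH counts. In PKM, ENST00000319622 fell from 39.0 ± 1.32 to 12.1 ± 2.19 CPM (log2 -1.74 ± 0.21 SE, edgeR adjusted p = 0.0048). None of the 7 transcript calls remained without MinION replicate 1 or without MinION replicate 2, where 1 MinION library is left, and 1 remained without a filter on low counts.

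In the test of usage within a gene, TPI1 (edgeR adjusted p = 5.8e-07), PKM (0.00050) and GAPDH (0.00084) passed of 6 members tested, where 5.91% of all genes were called. The TPI1 call held without each library in turn. That of GAPDH was lost without PromethION replicate 2 (0.093) and that of PKM without MinION replicate 1 (0.059). When transcripts with the same introns were summed, TPI1 was no longer among the genes tested, while GAPDH and PKM passed. ALDOA usage did not pass between instruments (edgeR adjusted p = 1.0).

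**Figure D4:**
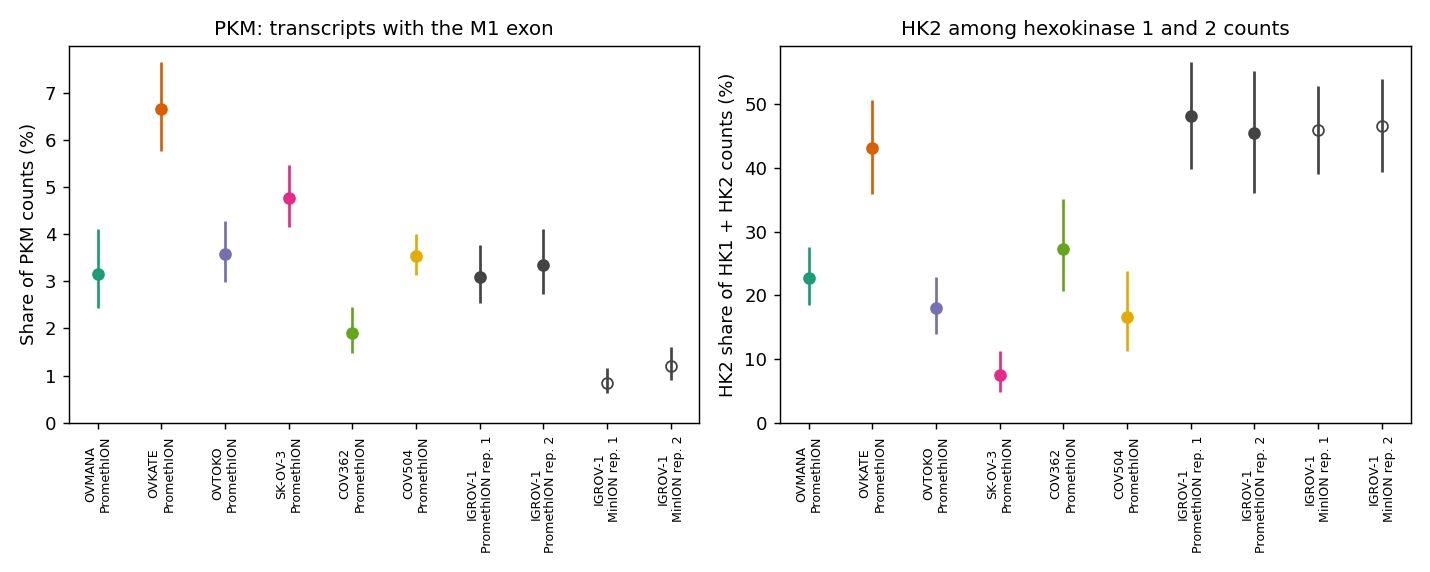
Share of PKM counts on transcripts with the M1 exon (left) and HK2 share of the joint HK1 and HK2 counts (right), in percent (y axis) by library (x axis), with 95% Wilson intervals, filled points for PromethION and open points for MinION. The M1 share runs from 1.90% in COV362 to 6.64% in OVKATE on PromethION, and the HK2 share from 7.43% in SK-OV-3 to 48.1% in IGROV-1.

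Other genes around the pathway were taken from a list of 42, of which 32 could be tested and 23 had a mean of at least 10 CPM. Of 192 tests against IGROV-1 over the 6 lines, 122 passed with edgeR, where 41.1% of all genes were called, 22.3% higher and 18.8% lower. With DESeq2 60 passed, and the share of all genes called by DESeq2 is not given here. In the edgeR fit OVMANA and OVTOKO each had 11 genes higher and 9 lower, and COV504 had 10 of each. The lower ones outnumbered the higher ones in OVKATE (15 to 9), SK-OV-3 (12 to 8) and COV362 (11 to 7). SLC2A1, the glucose transporter GLUT1, stood at 581 CPM in COV504, 400 in COV362, 635 in SK-OV-3, 285 in OVKATE, 266 in OVMANA and 131 in OVTOKO, against 70.9 and 90.6 in IGROV-1 PromethION. It was higher in all 6 lines (log2 0.77 in OVTOKO to 2.77 in COV504). The OVTOKO call was lost without PromethION replicate 1, MinION replicate 1 or MinION replicate 2 (edgeR adjusted p up to 0.12).

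PFKP and PFKM differed from IGROV-1 in opposite directions in all 6 lines. These comparisons share the IGROV-1 libraries, so they do not give an opposite order among the 6 lines. PFKM, the muscle-type subunit, had 123 and 130 CPM in IGROV-1 PromethION, where PFKP was lowest, and 32.0 CPM in COV504, 69.3 in COV362, 6.08 in SK-OV-3, 78.6 in OVKATE, 47.0 in OVMANA and 38.7 in OVTOKO. It was lower in all 6 lines (log2 -0.82 in COV362 to -4.59 in SK-OV-3; edgeR), of which the calls in COV362, OVKATE and OVMANA were lost with DESeq2. PFKL, the liver-type subunit, was higher in 4 lines, by a log2 of 0.90 in OVMANA to 1.29 in SK-OV-3, and in 0 of them with DESeq2. PFKFB3, which makes an activator of phosphofructokinase, was higher in OVTOKO (log2 3.01), SK-OV-3 (1.87), OVKATE (1.51) and OVMANA (1.12) and lower in COV362 (-1.16). With DESeq2 its calls in OVKATE, OVMANA and COV362 were lost (adjusted p up to 0.389).

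Further isoenzymes varied by line. HKDC1, a hexokinase relative, had 69.4 CPM in SK-OV-3, 75.2 in OVTOKO, 48.1 in OVMANA, 6.27 in COV362, 4.95 in OVKATE and 0 counts in COV504, against 20.9 and 20.6 in IGROV-1 PromethION. ADPGK, an ADP-dependent glucokinase, was higher in COV504 (log2 1.04) and lower in SK-OV-3 (-0.72). The SK-OV-3 call was lost without any 1 of the 4 IGROV-1 libraries (adjusted p up to 0.685 over the alternatives), and both were lost with DESeq2. ALDOC, the brain-type aldolase, had 124 CPM in OVTOKO, 33.3 and 20.2 in IGROV-1 PromethION and 0 counts in OVKATE and COV362. PGAM1, phosphoglycerate mutase, was higher in OVTOKO (log2 1.19) and lower in OVKATE (-1.22) and SK-OV-3 (-1.14). BPGM, which makes 2,3-bisphosphoglycerate, was lower in all 6 lines with edgeR (-1.23 to -2.31) and in 0 of them with DESeq2. ENO2, the neuronal enolase, had 253 CPM in OVMANA and 160 in OVTOKO, against 11.1 and 6.44 in IGROV-1 PromethION, and was higher in 5 lines (log2 1.48 to 4.90), of which COV362 not with DESeq2.

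At the end of the pathway, LDHA, which turns pyruvate into lactate, had 2214 CPM in COV504, 584 in COV362, 2810.4 in SK-OV-3, 146 in OVKATE, 1299 in OVMANA and 2999 in OVTOKO, against 840.2 and 623 in IGROV-1 PromethION. Like GAPDH and TPI1 it was lowest in OVKATE, by a log2 of -2.63 ± 0.33 (SE; edgeR adjusted p = 0.00033), and it was higher in OVTOKO (2.11), SK-OV-3 (1.71), COV504 (1.52) and OVMANA (0.89). The OVMANA call was lost without MinION replicate 1 (up to 0.069). LDHB, of the heart-type enzyme, was lower in 4 lines, by up to -2.21 in SK-OV-3. SLC16A3, the lactate exporter MCT4, had 22.3 CPM in COV362 and 82.1 to 326 in the other 5 lines, against 3.84 and 0.43 in IGROV-1 PromethION, and passed in all 6 (COV362 not with DESeq2). SLC16A1, the lactate carrier MCT1, was lower in 5, of which only OVKATE also passed with DESeq2.

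MPC1 of the pyruvate carrier was lower in 5 lines and higher in OVMANA (log2 1.20), MPC2 lower in 4 and PDHB of pyruvate dehydrogenase lower in 5, while PDHA1 was higher in COV504 (1.53) and OVKATE (0.57). The MPC2 call in OVMANA was lost without either MinION replicate (adjusted p up to 0.116) and that of PDHA1 in OVKATE without PromethION replicate 2 (up to 0.242). With DESeq2, the calls of MPC1 in COV362 and OVTOKO, MPC2 in OVMANA, PDHB in COV504 and PDHA1 in OVKATE were lost. PDK2, an inhibitory kinase of that enzyme, was higher in OVKATE (2.37) and COV504 (1.80), and in neither with DESeq2. Of the splicing factors known to act on the PKM exon pair, PTBP1 was lower in all 6 lines (log2 -0.57 in OVMANA to -1.53 in OVKATE), as was HNRNPA1 (-0.47 in COV362 to -1.93 in OVKATE). HNRNPA2B1 was lower in 3 lines and SRSF3 in OVKATE (-0.56). The HNRNPA2B1 call in OVKATE was lost under each of 11 alternatives (adjusted p up to 0.386) and that in OVTOKO without either PromethION replicate (up to 0.121). The SRSF3 call was lost without PromethION replicate 1, MinION replicate 1 or MinION replicate 2 (up to 0.28). PTBP1 calls in COV362 and OVTOKO were lost with DESeq2. COV504 was next to OVKATE in both PTBP1 (-1.04) and HNRNPA1 (-1.08). The M1-exon share was 6.64% in OVKATE, 4.77% in SK-OV-3, 3.57% in OVTOKO, 3.54% in COV504, 3.16% in OVMANA and 1.90% in COV362. It was 3.09% and 3.35% in IGROV-1 PromethION, and the part of these factors in the share was not tested. PTBP1 calls in OVMANA and HNRNPA1 calls in OVTOKO and COV362 were lost when any of the 4 IGROV-1 libraries was left out (adjusted p up to 0.402).

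The members did not all follow one order over the 7 lines. Over the 45 pairs of members, Pearson's r of log2(CPM + 1) across lines had a median of 0.38, against 0.04 for all pairs of genes of at least 10 CPM, and 39 pairs were above 0. The highest was GPI with TPI1 (0.90) and the lowest HK2 with PKM (-0.70). These are descriptions over 7 lines, most of 1 library, that share depth and scaling. For 8326 other genes, Pearson's r was taken with the log2 of the members' summed level, in which GAPDH weighs most. It was highest for RARRES3 (r = 0.96), AK4 (0.96) and LTBR (0.96). With PKM in place of the sum, r was highest for HIBADH (0.99), UBE2J1 (0.98) and SMG1 (0.95). These genes are the top of 8326 values, each taken over 7 lines. How high such a top would lie for unrelated genes was not tested, so no shared regulation is shown.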

How the data were processed

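RNA was measured in 10 nanopore libraries of 7 cell lines. Alignment used minimap2 2.24-r1122 to GRCh38, per the submitters' processing notes. Quantifier settings and the annotation release were not given in the sources used here. Each file deposited by the authors holds estimated counts of transcripts and a TPM that equalled CPM, with no division by length, to within 5.6e-11. Estimated counts were summed per gene and rounded, which removed at most 0.026% of a library. Tests used edgeR 4.0.16 (R 4.3.3): quasi-likelihood, TMM, its default expression filter and Benjamini-Hochberg adjustment, two-sided, at 0.05. Lines were compared in a fit over all 10 libraries, instruments in one over the 4 IGROV-1 libraries, and usage by transcript with a Simes p per gene. Count tests were checked on simulated data. DESeq2 1.42.0, other scalings and filters and leaving out libraries were alternatives. Exons come from GENCODE 29, in which 46 of the 47 transcripts were found, 37 with the same start and end. All members are named, other pathway genes if their mean reached 10 CPM, and member transcripts from 10% of a gene's counts; minor transcripts of GAPDH and PKM were named after their values were seen. Members and lists were chosen with earlier results of these data known. Pseudocount for correlations was 1 CPM.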

Additional observations from a re-analysis of the deposited data

How the results depend on the processing

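Of the 38 member calls between lines, 26 held under each of 11 alternatives. No call among 154 single results changed direction in 1681 alternative runs, although the usage calls among them have no direction to change. The alternatives refit the same libraries, and the single library of each other line was never left out. Calls rest on few libraries: leaving out 1 IGROV-1 library gave 27 to 34 member calls and 107 to 118 pathway calls in all, against 38 and 122, and DESeq2 gave 30 and 60, with 26 of its 30 member calls higher (86.7%, against 78.9%). Neighbouring steps called went from 11 to 4 with DESeq2 and to between 6 and 11 without 1 library. Transcripts called between instruments went from 7 to 1 with no filter and to between 0 and 8 without 1 library. Usage calls between lines went from 4 to 2 with the 8 PromethION libraries only and to 1 without any 1 IGROV-1 library. The shares of all genes or transcripts called under these alternatives are not given here. Whether the drops concern these genes or all genes is therefore not shown, and the cause was not tested. Low counts limit HK2, with 20 to 89 counts per library.

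With the replicate number as a block, 3 members (GAPDH, edgeR adjusted p = 5.2e-10, ENO1, 0.0011, and PGK1, 0.031), 11 transcripts and 3 usage tests passed between instruments, against 0, 7 and 3. The shares of all genes and transcripts called with the block are not given here, and the block leaves fewer residual degrees of freedom. The labels give same-numbered libraries nothing in common but the number, while their deviations from the group means correlated at 0.37 over genes and 0.22 over transcripts.

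Direction changed only for differences that did not pass, on the log2 scale. Against IGROV-1, ENO1 in OVKATE went from -0.02 to 0.053 with RLE size factors, 0.042 at 10 CPM, 0.0098 without mitochondrial ribosomal RNA, 5.7e-05 with PromethION only and 0.055 with DESeq2. PKM in COV362 went from -0.01 to 0.033, 0.034, 0.013, 0.016 and 0.033 under the same settings and 0.016 with both instruments as reference. That reference gave -0.012 for GAPDH and -0.0033 for TPI1 in COV504. Between instruments, no filter and DESeq2 gave 0.0065 and 0.0020 for GPI and 0.028 and 0.0017 for ENST00000566897. Without 1 IGROV-1 library, ranges were -0.21 to 0.010 for ALDOA in COV362, -0.098 to 0.057 for ENO1 in OVKATE, -0.10 to 0.081 for PKM in COV362 and -0.030 to 0.10 for TPI1 in COV504. Between instruments they were -0.16 to 0.064 for ALDOA, -0.0952 to 0.058 for GPI, -0.080 to 0.27 for HK1, -0.19 to 0.31 for HK2, -0.17 to 0.042 for PKM and -0.056 to 0.18 for TPI1. For transcripts they were -0.46 to 0.073 for ENST00000338110, -0.16 to 0.033 for ENST00000564546, -0.28 to 0.30 for ENST00000566897, -0.15 to 0.053 for ENST00000356487, -0.15 to 0.29 for ENST00000415930, -0.11 to 0.23 for ENST00000359426, -0.042 to 0.22 for ENST00000381125 and -0.25 to 0.035 for ENST00000335181.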

Other observations

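GAPDH and TPI1 lie close together on chromosome 12. Within 1000000 bases of either gene (5533927 to 7870948), 37 genes were tested. Their median log2 difference from IGROV-1 was 1.13 in OVMANA, with 26 of 37 above 0, and 0.70 in OVTOKO, also with 26. In COV362 the median was 0.72, with 27 above 0, and in COV504 it was 0.12, with 21. In OVKATE and SK-OV-3, the lines with the least GAPDH, the medians were -0.60 and -0.58, with 10 above 0 in each. The median of all genes lay between -0.01 and 0.04. In COV362, TPI1 was lower than IGROV-1 (-0.86) while the neighbourhood's median was above 0. The part of this region in the levels of either gene was not tested.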
